A study of Mus musculus with 9 samples.

Results

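The genes described here are 9 transcription factors that blood monocytes use as they form and divide into subsets: Nr4a1, Klf2, Klf4, Cebpa, Cebpb, Pou2f2, Irf8, Spi1 and Irf4. They were taken by name from the gene lists of 9 RNA-seq libraries, each of which holds 23234 gene symbols, and all 9 were found; Spi1, which encodes PU.1, is listed under its older symbol Sfpi1. Mouse blood holds classical monocytes, which carry Gr-1 (an epitope of Ly6C and Ly6G) at a high level, and nonclassical monocytes, which carry little of it and patrol the vessel wall. PU.1 and IRF8 act early in the monocyte lineage, C/EBP alpha acts in progenitors, and C/EBP beta and the orphan nuclear receptor NR4A1 are needed for nonclassical monocytes to form or survive. KLF4 is needed for monocyte differentiation, KLF2 holds myeloid cells quiescent, IRF4 acts in dendritic cells and alternatively activated macrophages, and OCT2, the product of Pou2f2, is best known from B cells.

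The libraries came from CD11b+ cells of peripheral blood, sorted as Gr-1+ (4 libraries) or Gr-1- (5 libraries), from 8-month-old C57BL/6 mice. All the mice carried Yaa, a Y-linked duplication that promotes lupus-like disease, and their alleles concerned the inhibitory Fc receptor gene Fcgr2. The Gr-1+ libraries were labelled null (2, Fcgr2-/-), CEBPaCre (1) and CD19Cre (1), and the Gr-1- libraries null, CEBPaCre, CD11cCre, CD19Cre and floxed without Cre (1 each), the Cre lines all on the floxed Fcgr2 allele. CEBPaCre acts in myeloid cells, CD11cCre in dendritic cells and part of the monocytes, and CD19Cre in B cells, so monocytes of the CD19Cre and floxed mice are labelled as having Fcgr2 intact. The labels do not say that the libraries came from separate animals or how many mice went into each, so the p-values below measure the spread between these libraries. Values are FPKM, fragments scaled to transcript length and to the mapped fragments of the library, and a fold change is the ratio of geometric means of FPKM + 1.

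Whole-library measures were as follows. Read depth is not given, and the spacing of low values placed the libraries' relative depths between 0.707 and 2.68 times that of the floxed library. These estimates are rough, as the ratio that set each was shared by 11.4% to 23.1% of the genes used. The library placed at 2.68, CD19Cre Gr-1-, had 8827 genes at 0 FPKM, against 5246 in the floxed library. Of the tested genes typical of classical monocytes 16 of 21 were higher in Gr-1+ and 1, Trem3, in Gr-1-, and of those typical of nonclassical monocytes 23 of 25 were higher in Gr-1-. Fcgr2b did not follow the labels: it lay between 74.9 FPKM in the floxed library and 200.7 FPKM in a null Gr-1+ library, so genotypes are given below as labelled. Other cell types' genes also differed between the subsets: 13 of 16 tested neutrophil genes were higher in Gr-1+, with a summed level of 1433 to 8713 FPKM against 114 to 295, while Gr-1- had the higher level for 5 of 8 B cell genes and for 10 of 12 NK cell genes. The neutrophil and classical monocyte lists share a gene, which is counted in both. In these bulk samples fewer cells of a type and less RNA per cell cannot be told apart. The 2 CD19Cre libraries stood apart from the others, with ribosomal protein genes at 1.99% and 2.28% of all FPKM against 3.68% to 7.74%, and subset differences that moved most without them are given with and without them.

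Promoters of the members that differed most between the subsets, or between the genotypes, are shown here with the letters that were searched in them. Each is the 250 bases before the RefSeq start in build GRCm38.p6, 5′ to 3′ in the direction of the gene. The stretches are chr15:101266596-101266845 on the plus strand for Nr4a1, chr2:167688665-167688914 on the plus strand for Cebpb, chr7:25132461-25132710 on the minus strand for Pou2f2 and chr7:35119043-35119292 on the plus strand for Cebpa. Capitals mark TGACG, the core of a cAMP response element (CRE half-site), and CACCC, the box that KLF proteins bind, each on either strand (CGTCA and GGGTG on the strand shown).
Nr4a1: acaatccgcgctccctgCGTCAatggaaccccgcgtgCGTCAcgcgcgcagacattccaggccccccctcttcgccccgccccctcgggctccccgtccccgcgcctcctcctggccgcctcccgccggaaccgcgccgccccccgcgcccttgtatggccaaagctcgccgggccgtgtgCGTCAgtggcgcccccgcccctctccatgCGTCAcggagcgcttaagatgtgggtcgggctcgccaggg
Cebpb: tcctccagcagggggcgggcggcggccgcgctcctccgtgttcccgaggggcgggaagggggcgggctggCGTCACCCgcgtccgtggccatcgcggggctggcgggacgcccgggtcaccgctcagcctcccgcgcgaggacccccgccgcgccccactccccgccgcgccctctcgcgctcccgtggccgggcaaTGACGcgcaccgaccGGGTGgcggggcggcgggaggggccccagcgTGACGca
Pou2f2: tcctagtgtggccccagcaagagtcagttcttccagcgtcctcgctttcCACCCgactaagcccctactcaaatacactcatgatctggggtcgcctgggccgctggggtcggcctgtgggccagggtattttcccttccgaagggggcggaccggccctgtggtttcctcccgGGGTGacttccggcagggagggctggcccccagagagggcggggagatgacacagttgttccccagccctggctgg
Cebpa: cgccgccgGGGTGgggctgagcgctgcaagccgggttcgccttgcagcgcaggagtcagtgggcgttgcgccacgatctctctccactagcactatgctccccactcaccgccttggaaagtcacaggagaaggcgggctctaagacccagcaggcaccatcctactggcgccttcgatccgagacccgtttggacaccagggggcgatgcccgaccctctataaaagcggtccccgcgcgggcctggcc

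The Nr4a1 stretch holds 4 CRE half-sites, the element through which CREB acts on this immediate early gene, and no CACCC box. The Cebpb stretch holds 3 CRE half-sites and 2 CACCC boxes, 1 of each overlapping in the run CGTCACCC. The Pou2f2 stretch holds 2 CACCC boxes and the Cebpa stretch 1, with no CRE half-site in either. Among 32851 promoter stretches of the same length, 17.8% hold at least 1 CRE half-site and 52.0% at least 1 CACCC box. RefSeq gave 9 stretches for 8 of the members, all but Spi1; 4 of the 9 hold a CRE half-site and 5 a CACCC box. None of the 9 holds the octamer ATGCAAAT, which OCT2 binds, the letters AAAGGTCA bound by NR4A1, TTGCNNAA (C/EBP), GAGGAAG (PU.1), the interferon-stimulated response element or the full CRE TGACGTCA, which occur in 1.60%, 1.34%, 9.56%, 10.6%, 2.98% and 1.55% of all stretches. A match describes the letters and is not a measured binding site.

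Of the 9 factors, 3 differed between the subsets, all of them higher in Gr-1- monocytes: Nr4a1, Pou2f2 and Cebpb. By limma with Benjamini-Hochberg adjustment over 10436 genes, 14.8% of all genes were called in either direction, 8.84% as higher in Gr-1+ and 5.95% as higher in Gr-1-. The same 3 factors were the members whose values did not overlap between the subsets, with Gr-1- higher, as was the case for 6.26% of all genes; 10.2% of all genes had no overlap with Gr-1+ higher, and no member did. That makes 3 of 9 members without overlap, against 16.5% of all genes in either direction. The median log2 difference of Gr-1+ minus Gr-1- was -0.54 over the 9 members and 0.09 over all genes tested. The calls of Cebpb and Cebpa depended on which libraries were used.

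**Figure D1:**
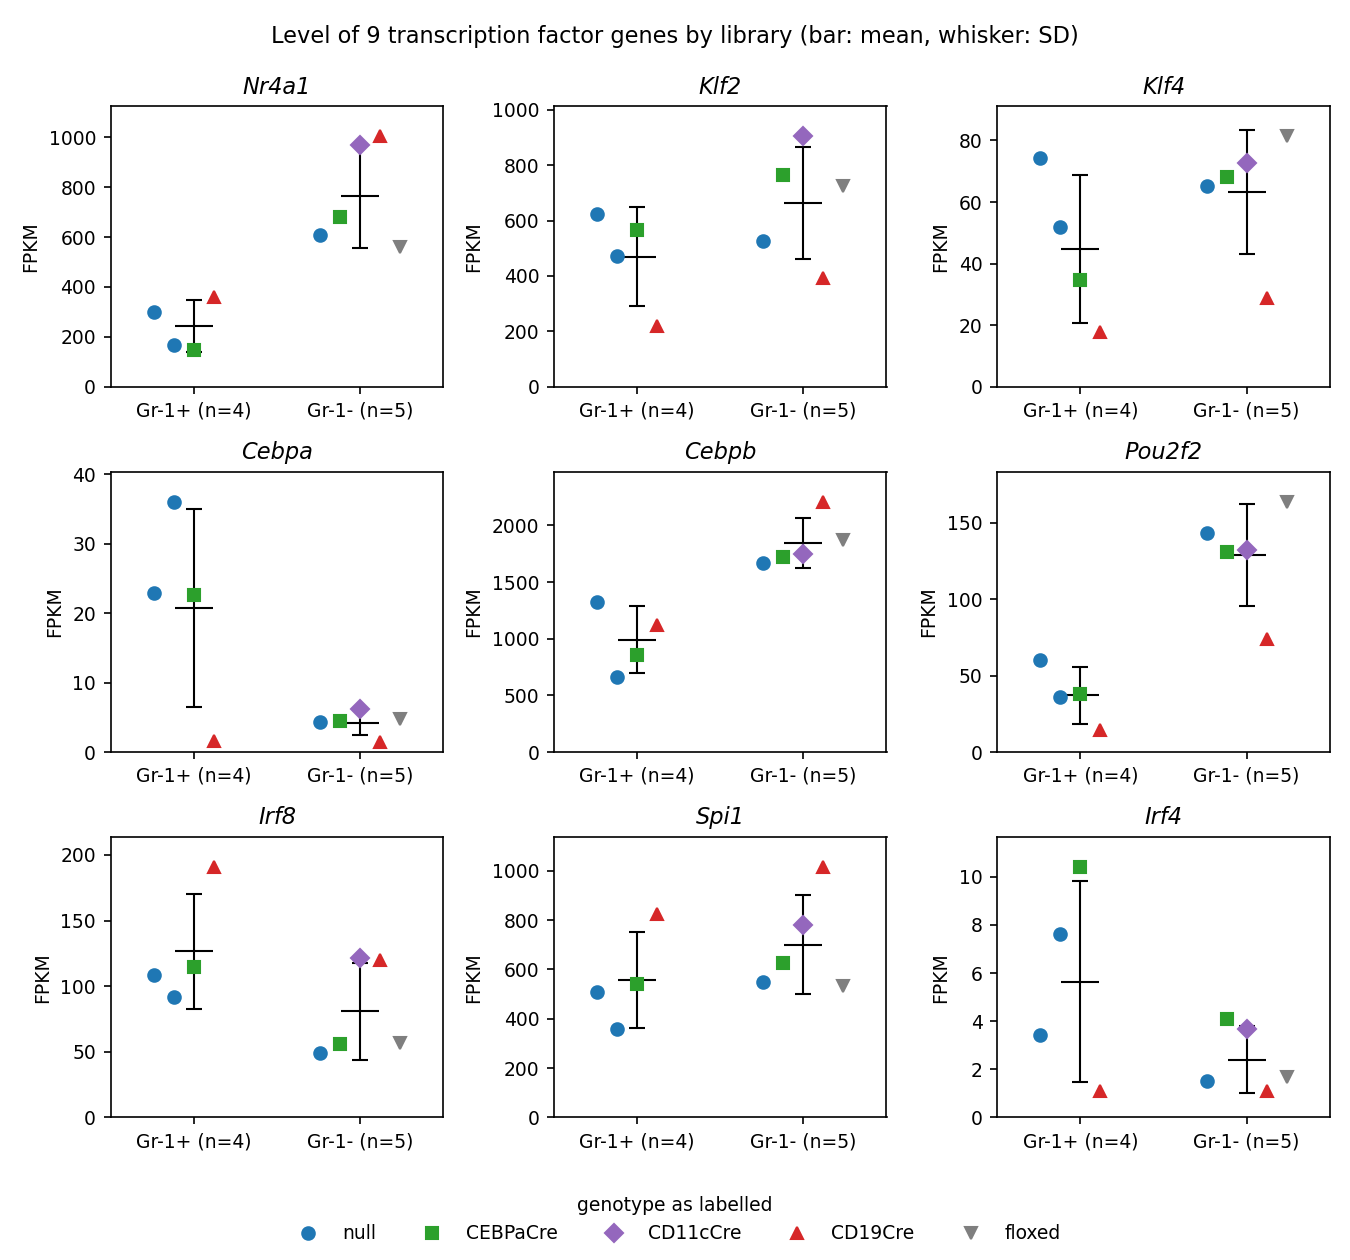
Level of each of the 9 factors in every library, in FPKM on a linear axis from 0, with 1 panel per gene; symbols give the labelled genotype, the horizontal bar the mean and the whisker the SD of the 4 Gr-1+ or 5 Gr-1- libraries. Nr4a1, Pou2f2 and Cebpb have no overlap between the subsets, while the CD19Cre libraries lie lowest in both subsets for Klf2, Klf4, Cebpa, Pou2f2 and Irf4.

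Nr4a1 encodes NUR77, a nuclear receptor without a known natural ligand that is also switched on within minutes of a stimulus. Its level in the Gr-1+ libraries was 299 and 167 FPKM in null, 146 in CEBPaCre and 359 in CD19Cre. In the Gr-1- libraries it was 609 FPKM in null, 681 in CEBPaCre, 971 in CD11cCre, 1005 in CD19Cre and 560.5 in floxed. Every Gr-1- library thus lay above every Gr-1+ library, and the CD19Cre library was the highest of its subset in both. The means were 243 ± 103 FPKM (SD, n = 4) for Gr-1+ monocytes and 765 ± 208 FPKM (SD, n = 5) for Gr-1- monocytes, and Nr4a1 fell by 1.71 ± 0.32 (SE) on the log2 scale in Gr-1+, 3.27-fold, with a limma adjusted p of 0.00403. The exact two-sided permutation test over the 126 assignments of the libraries gave p = 0.00794, the smallest that it can give. Over 19 alternative settings the log2 difference ran from -1.93 to -1.5004, and the adjusted p from 5.1e-04 to 0.0237.

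The other NR4A receptors were scarce. Nr4a2 had a mean of 1.78 ± 2.15 FPKM (SD) over the 4 Gr-1+ libraries and of 0.956 ± 0.668 FPKM over the 5 Gr-1- libraries (limma adjusted p = 0.713), and Nr4a3 lay under 1 FPKM in all 9 libraries and was not tested. Since Nr4a1 is also an immediate early gene, the list of such genes was read beside it: of 20 tested, 1, Dusp2, was higher in Gr-1- and 19 were not called. Dusp2, a phosphatase that acts on MAP kinases, averaged 17.3 ± 15.8 FPKM in Gr-1+ against 88.7 ± 45.1 in Gr-1- (limma adjusted p = 0.0127). The summed level of the immediate early genes ran from 1482 to 5426 FPKM in Gr-1+, against 2653 to 8012 in Gr-1-. The median log2 difference of the 20 tested was -0.49, against 0.09 over all genes tested. The part of immediate early expression in the Nr4a1 result was not tested.

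Pou2f2 had the largest fold change of the 3 called members. The Gr-1+ libraries held 60.3 and 36.0 FPKM in null, 38.0 in CEBPaCre and 14.8 in CD19Cre. The Gr-1- libraries held 143 FPKM in null, 131 in CEBPaCre, 132 in CD11cCre, 74.1 in CD19Cre and 164 in floxed. The lowest Gr-1- library, CD19Cre, was still above the highest Gr-1+ library, and the CD19Cre library was the lowest of its subset on both sides. Means were 37.3 ± 18.6 FPKM (SD, n = 4) and 129 ± 33.3 FPKM (SD, n = 5), a fold of 3.66 and a log2 difference of -1.87 ± 0.37 (SE), with a limma adjusted p of 0.00556. Without the CD19Cre Gr-1+ library the difference was -1.50 (limma adjusted p = 0.00603), and without both CD19Cre libraries -1.68 (9.8e-04). Over the 19 alternatives it ran from -2.15 to -1.50, and the limma adjusted p from 9.0e-04 to 0.0472. Its relatives Pou2f1 (0.761 FPKM in Gr-1+ and 0.901 in Gr-1-) and Pou2f3 (0.0201 and 0.0204 FPKM) were too low to test. OCT2 is a B cell factor and B cell genes were also higher in Gr-1-: their sum ran from 12.6 to 74.8 FPKM in Gr-1+, against 50.5 to 162 in Gr-1-. The 5 called were Cd22 (1.35 FPKM in Gr-1+ and 33.0 in Gr-1-), Cd79a (0.665 and 17.9), Cd79b (11.6 and 37.0), Ms4a1 (0.103 and 4.04) and Spib, while the factors Pax5 and Ebf1, with Cr2 and Vpreb3, lay under 1 FPKM in all 9 libraries. The part of B cell RNA in the Pou2f2 result was not tested.

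Cebpb was the most abundant of the 9, with a mean above that of 99.9% of all genes listed. Gr-1+ libraries held 1328 and 661 FPKM in null, 859 in CEBPaCre and 1122 in CD19Cre. Gr-1- libraries held 1664 FPKM in null, 1721 in CEBPaCre, 1751 in CD11cCre, 2211 in CD19Cre and 1875 in floxed. The groups did not overlap, and the Gr-1- libraries lay within 1.33-fold of each other against 2.01-fold for Gr-1+. The means were 992 ± 293 FPKM (SD, n = 4) and 1845 ± 219 FPKM (SD, n = 5), and Cebpb fell by 0.94 ± 0.25 (SE) on the log2 scale in Gr-1+, 1.91-fold, with a limma adjusted p of 0.0253. This call was lost in 8 of 19 alternatives: leaving out the second null Gr-1+ library (adjusted p = 0.0767), the CEBPaCre Gr-1+ library (0.0798), or the CEBPaCre (0.0568), CD11cCre (0.0524) or floxed (0.0502) Gr-1- library. It was also lost with genotype as a block (adjusted p = 0.0605), with the genotypes that have both subsets alone (0.115) and with no filter on the mean (0.112). The direction was kept in all 19.

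Cebpa, the family member that acts in progenitors of neutrophils and monocytes, was at 22.9 and 36.1 FPKM in the null Gr-1+ libraries, 22.6 in CEBPaCre and 1.64 in CD19Cre. In Gr-1- it was at 4.39 FPKM in null, 4.49 in CEBPaCre, 6.22 in CD11cCre, 1.43 in CD19Cre and 4.78 in floxed. The Gr-1+ libraries other than CD19Cre were all above every Gr-1- library, and the CD19Cre library was the lowest of its subset in both. Over all 9 libraries the means were 20.8 ± 14.2 FPKM (SD, n = 4) and 4.26 ± 1.75 FPKM (SD, n = 5), and the log2 difference of 1.63 ± 0.66 (SE) did not pass, with a limma adjusted p of 0.137. Without the CD19Cre Gr-1+ library the difference was 2.47 (adjusted p = 8.0e-04), and without both CD19Cre libraries 2.22 (adjusted p = 2.6e-04). With genotype as a block it was 1.65 (adjusted p = 0.0353), and with libraries weighted by their own scatter 2.09 (adjusted p = 0.00286). Genes of neutrophils, cells whose precursors use C/EBP alpha, were also higher in Gr-1+, their sum at 8713 and 4005 FPKM in null, 1433 in CEBPaCre and 2616 in CD19Cre. Their part in the Cebpa result was not tested.

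The balance of the 2 C/EBP genes was then read per library. Per length, Cebpb exceeded Cebpa 58.0-fold and 18.3-fold in the null Gr-1+ libraries and 38.1-fold in CEBPaCre Gr-1+. In the Gr-1- libraries other than CD19Cre the ratio was 282 to 392. The CD19Cre ratios, 683 in Gr-1+ and 1549 in Gr-1-, were the highest of their subsets. Of the 6 C/EBP genes tested, 2 were higher in Gr-1+, 2 in Gr-1- and 2 were not called. Cebpe, which drives the late granule genes of neutrophils, averaged 7.39 ± 5.02 FPKM in Gr-1+ against 0.593 ± 0.182 in Gr-1- (4.75-fold, limma adjusted p = 4.9e-04). Cebpd averaged 52.0 ± 12.8 and 24.3 ± 6.12 FPKM (2.09-fold, limma adjusted p = 0.0127). Ddit3, the stress-induced inhibitory member CHOP, went the other way with Cebpb, at 5.06 ± 2.02 and 13.7 ± 1.64 FPKM (2.51-fold, limma adjusted p = 0.00221).

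Neither Krüppel-like member passed the test between the subsets. Klf2 was at 623 and 471 FPKM in null, 565 in CEBPaCre and 218 in CD19Cre Gr-1+ libraries, and at 527, 764, 905, 392 and 725 FPKM in null, CEBPaCre, CD11cCre, CD19Cre and floxed Gr-1- libraries. Klf4 was at 74.2 and 51.8 FPKM in null, 34.8 in CEBPaCre and 17.8 in CD19Cre Gr-1+ libraries, and at 65.2, 68.0, 72.8, 28.9 and 81.4 FPKM in the Gr-1- libraries in the same order. For both genes the subsets overlapped and the CD19Cre library was the lowest of each subset. The log2 difference was -0.54 ± 0.35 (SE) for Klf2 (limma adjusted p = 0.369) and -0.59 ± 0.41 (SE) for Klf4 (limma adjusted p = 0.405). Without the CD19Cre Gr-1+ library these were -0.21 (adjusted p = 0.712) and -0.22 (adjusted p = 0.766), and without both CD19Cre libraries -0.38 and -0.48. Klf2 exceeded Klf4 per length by 8.08-fold to 16.2-fold in all 9 libraries. Of the 10 KLF genes tested, 0 were called by limma, and Klf3 (138 and 130 FPKM), Klf6 (98.0 and 121 FPKM) and Klf10 (91.0 and 82.9 FPKM) were among those not called, with their Gr-1+ and Gr-1- means in that order.

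Irf8, which directs progenitors to the monocyte and dendritic cell lines, was at 108 and 92.0 FPKM in null, 115 in CEBPaCre and 191 in CD19Cre Gr-1+ libraries. In Gr-1- it was at 49.2 FPKM in null, 55.9 in CEBPaCre, 122 in CD11cCre, 120.3 in CD19Cre and 56.7 in floxed. The Gr-1- libraries fell into a low range of 49.2 to 56.7 FPKM and a pair near 120 FPKM, and that pair made the subsets overlap. The log2 difference of 0.70 ± 0.34 (SE) did not pass (limma adjusted p = 0.217), though with genotype as a block, which compares the subsets within a genotype, it was 0.91 (adjusted p = 0.00553). Irf4 was the least abundant member: 3.44 and 7.63 FPKM in null, 10.4 in CEBPaCre and 1.10 in CD19Cre Gr-1+ libraries, and 1.5002, 4.08, 3.69, 1.09 and 1.68 FPKM in null, CEBPaCre, CD11cCre, CD19Cre and floxed Gr-1- libraries. The subsets overlapped for Irf4 (log2 difference 0.78 ± 0.47 (SE), limma adjusted p = 0.323), and its highest value in each subset was in the CEBPaCre library. Without the CD19Cre Gr-1+ library the Irf4 difference was 1.25 (adjusted p = 0.0514), and without both 1.09 (adjusted p = 0.0845). Of 8 IRF genes tested, 0 were called by limma, Irf7 with means of 136 ± 89.6 and 72.6 ± 25.4 FPKM (adjusted p = 0.293) and Irf1 with 61.7 ± 27.5 and 94.4 ± 29.5 FPKM (adjusted p = 0.241).

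Spi1, whose product PU.1 binds the regulatory DNA of most myeloid genes, was at 509 and 358 FPKM in null, 539.7 in CEBPaCre and 824 in CD19Cre Gr-1+ libraries. In Gr-1- it was at 550.4 FPKM in null, 628 in CEBPaCre, 780.4 in CD11cCre, 1015 in CD19Cre and 531 in floxed. The subsets overlapped over most of their range, the CD19Cre library was the highest of each subset, and the log2 difference of -0.35 ± 0.29 (SE) did not pass (limma adjusted p = 0.494). Other ETS factors did differ: of 10 tested, 4 were higher in Gr-1-. Ets1, an ETS factor of lymphocytes and NK cells, averaged 1.35 ± 0.911 FPKM in Gr-1+ against 33.4 ± 9.92 in Gr-1- (14.9-fold, limma adjusted p = 1.5e-05). Ets2 averaged 3.72 ± 1.48 and 26.5 ± 10.6 FPKM (5.70-fold, adjusted p = 2.8e-04), and Spic, the PU.1 relative of red pulp macrophages, 4.17 ± 2.28 and 26.8 ± 11.6 FPKM (5.38-fold, adjusted p = 7.0e-04). The fourth, Spib, a relative active in B cells and plasmacytoid dendritic cells, averaged 0.409 and 1.97 FPKM. The sum of the NK cell genes was also higher in Gr-1-, at 25.7 to 508 FPKM against 1.71 to 4.63 FPKM in Gr-1+. Over the null, CEBPaCre, CD11cCre, CD19Cre and floxed Gr-1- libraries this sum was 25.7, 164, 508, 136 and 197 FPKM. Ets1 in the same order was at 26.9, 38.9, 42.5, 39.4 and 19.2 FPKM. The part of NK cell RNA in the Ets1 result was not tested.

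**Figure D2:**
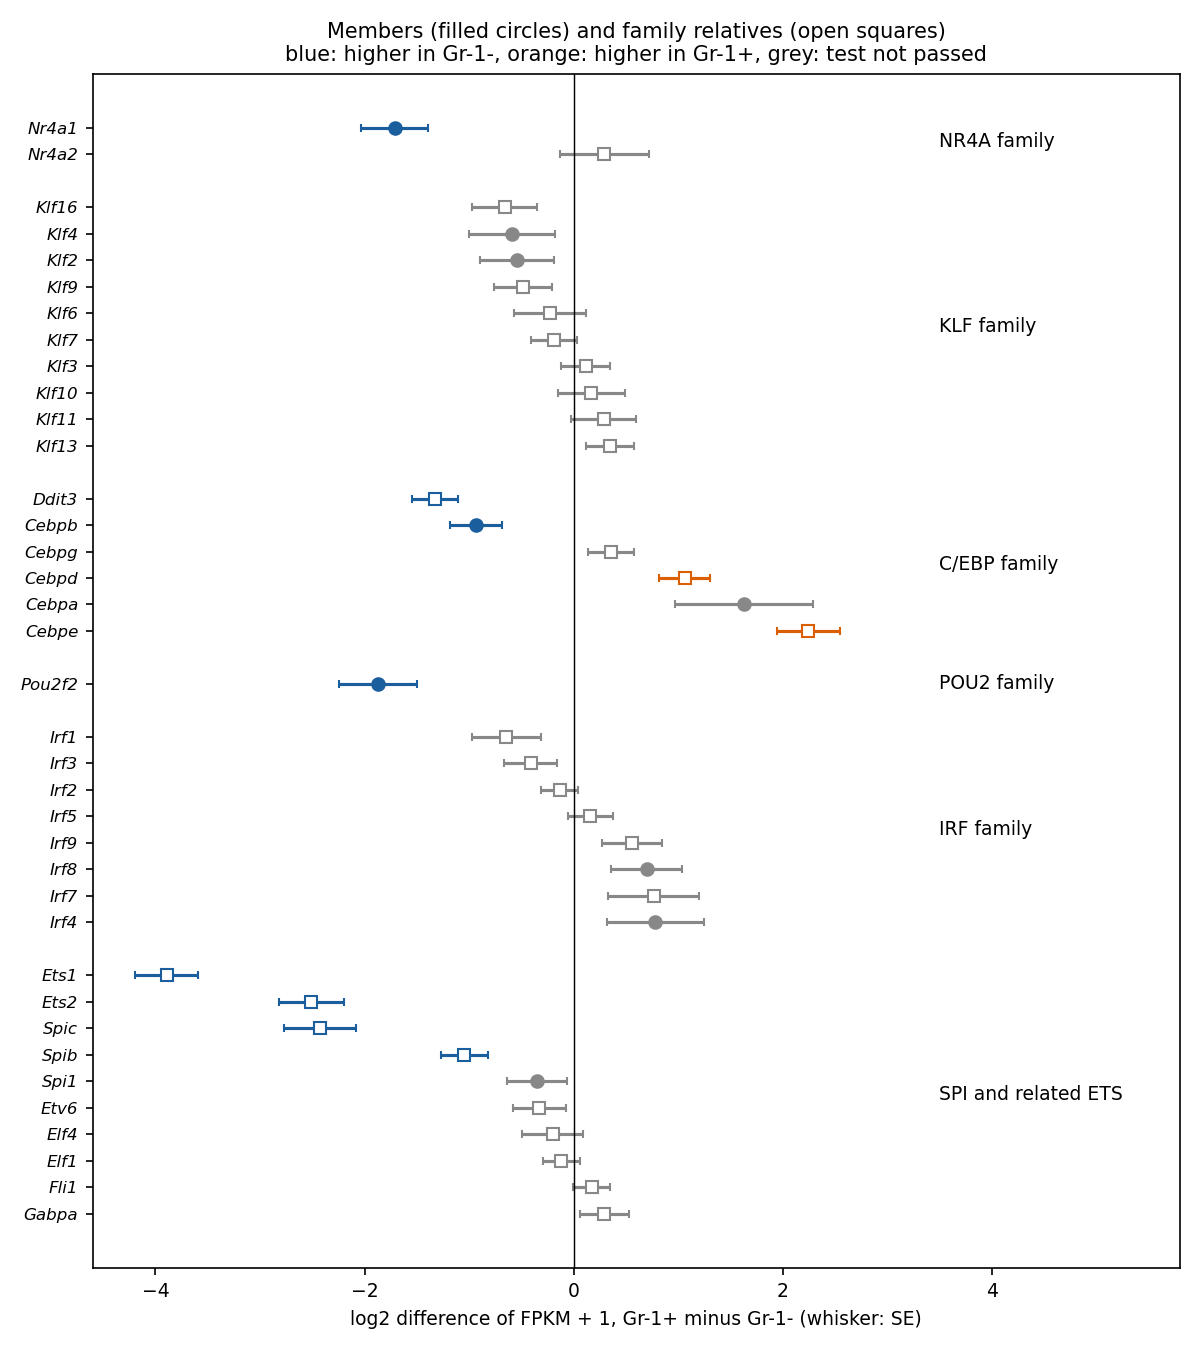
Log2 difference of Gr-1+ minus Gr-1- with its standard error for the members and their tested relatives, grouped by family; filled circles are the members, open squares their relatives, and blue (higher in Gr-1-) or orange (higher in Gr-1+) marks an adjusted p of at most 0.05 by limma, grey the rest. The C/EBP family has called genes on both sides of 0, the ETS calls all lie on the Gr-1- side, and no KLF or IRF gene was called.

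Among 41 other tested regulators of myeloid fate, 5 were higher in Gr-1+, 9 in Gr-1- and 27 were not called. Pparg, the nuclear receptor of lipid handling, averaged 7.12 ± 1.61 FPKM in Gr-1+ against 113 ± 33.9 in Gr-1- (13.7-fold, limma adjusted p = 9.4e-06). Hes1, a Notch target, averaged 11.8 ± 3.66 and 71.6 ± 21.0 FPKM (5.65-fold, limma adjusted p = 1.5e-04). Runx2 and the oxysterol receptor gene Nr1h3 were higher in Gr-1- too, 3.25-fold and 3.64-fold. Tfec, a macrophage relative of MITF, was the reverse, at 6.38 ± 2.32 and 0.174 ± 0.129 FPKM (6.11-fold, limma adjusted p = 1.8e-05). The median of the list was -0.07, against 0.09 over all genes tested.

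Genes reported as targets of PU.1, C/EBP proteins or IRF8 were called higher in Gr-1+ in 7 of 20 cases, higher in Gr-1- in 1 case, and not called in 12, with a median log2 difference of 0.41. Those higher in Gr-1+ included Msr1, a scavenger receptor gene (79.5 ± 47.2 and 6.73 ± 2.45 FPKM, limma adjusted p = 8.2e-05), and Lyz2, which encodes lysozyme (26920 ± 3828 and 9067 ± 3051 FPKM, limma adjusted p = 0.00376). Cebpe, Elane, Lcn2 and Ltf, also among the 7, are neutrophil granule genes or their regulator, and they are counted in the neutrophil sums given above. The gene higher in Gr-1- was Cst3, a protease inhibitor gene, at 1785 ± 398 and 4112 ± 736 FPKM (limma adjusted p = 0.00628). Csf1r, the receptor gene for the monocyte growth factor and a PU.1 target, was at 494 ± 130 and 920 ± 329 FPKM and was not called (limma adjusted p = 0.116).

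Genes linked to KLF2 or NR4A1 were split. Of 11 tested, 4 were higher in Gr-1-, 2 in Gr-1+ and 5 were not called, with a median of -0.71. S1pr5, the sphingosine receptor gene that lets nonclassical monocytes leave the marrow, averaged 14.4 ± 3.54 FPKM in Gr-1+ against 165 ± 42.3 in Gr-1- (10.6-fold, limma adjusted p = 1.2e-05). Bcl2, a survival gene, averaged 4.08 ± 2.15 and 36.3 ± 6.16 FPKM (7.69-fold, limma adjusted p = 3.0e-05), and Itgal, the integrin subunit of LFA-1, 98.96 ± 12.5 and 301 ± 90.0 FPKM (2.92-fold, limma adjusted p = 0.00180). Nab2, a corepressor of EGR proteins, was the fourth, at 2.93 and 6.71 FPKM. The death gene Bcl2l11 went the other way, at 12.3 ± 3.97 and 2.96 ± 1.17 FPKM (3.34-fold, limma adjusted p = 0.00213).

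Each factor was also set beside the gene whose log2(FPKM + 1) followed it most closely over the 9 libraries, among 6643 genes whose mean reached 5 FPKM. These Pearson coefficients are descriptions over 9 libraries that share their sorting and scaling and differ in depth, and the highest of so many is high by selection. Nr4a1 was followed most closely by Ceacam2 (r = 0.996), then Pilra (0.984) and Cd300ld (0.979), 3 genes of cell-surface receptors. Pou2f2 was followed by Ear2 (r = 0.986), Ear10 (0.983) and Cdc42ep2 (0.983), the former pair being eosinophil-associated ribonucleases. Cebpb was followed by Dok3 (r = 0.972), an adaptor of immune receptors, Fpr1 (0.966) and again Pilra (0.962). The members that did not separate the subsets had other neighbours: Klf2 had Hpgd (0.983), Klf4 had Taf1d (0.970), Spi1 had Cd68 (0.981), Irf8 had Tmem5 (0.975), Cebpa had Fam117a (0.976) and Irf4 had Lpar5 (0.941).

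Genotype was then compared within the subsets. Libraries labelled as having Fcgr2 deleted in monocytes (null and CEBPaCre) were set against those labelled intact (CD19Cre and floxed), with subset in the model. The CD11cCre library was left out, as its Cre acts in part of the monocytes. Between these groups limma called 0 of the 9 members and 0.0% of all 10429 genes. At an unadjusted p under 0.05 there were 1470 genes, 3 of them members: Cebpa (log2 difference 1.76 ± 0.56 (SE), adjusted p = 0.306), Irf4 (1.13 ± 0.41, adjusted p = 0.308) and Irf8 (-0.74 ± 0.28, adjusted p = 0.308). The floxed library decided this count: without it, intact meant CD19Cre alone and 6 members were called, Klf2, Klf4, Cebpa and Pou2f2 higher and Irf8 and Spi1 lower in the libraries labelled deleted, where 24.5% of all genes were called. Without the CD19Cre libraries the difference changed sign for 6 of the 9, Cebpa to -0.088 and Klf2 to -0.19. The effect of the label was not called as different between the subsets for any member: 0 of 9 by limma's interaction term, against 0.0863% of all genes, with 1 member, Cebpa, at an unadjusted p under 0.05 (2.84 ± 0.66 (SE), adjusted p = 0.882).

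The floxed and null Gr-1- libraries, which carry the same subset label and opposite Fcgr2 labels, were close for most members. Nr4a1 was at 560.5 FPKM in floxed and 609 in null, Cebpa at 4.78 and 4.39, Spi1 at 531 and 550.4, and Irf4 at 1.68 and 1.5002. In proportion the widest gap between them was that of Klf2, at 725 and 527 FPKM. Each is 1 library, so the gaps have no replicate check. The CD11cCre Gr-1- library had the highest Klf2 (905 FPKM), Irf8 (122 FPKM) and Cebpa (6.22 FPKM) of its subset, again without a replicate.

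Null and CEBPaCre libraries, present in both subsets, were called as different in no member: limma called 0 of 9, against 0.096% of all 10415 genes, and no member was under an unadjusted p of 0.05, where 2237 genes were. The differences of CEBPaCre minus null ran from -0.45 ± 0.25 (SE) for Klf4 to 0.88 ± 0.39 (SE) for Irf4 (adjusted p = 0.330 and 0.248). Cebpa itself, after which this Cre is named, was at 22.6 and 4.49 FPKM in the CEBPaCre libraries of the Gr-1+ and Gr-1- subsets, beside 22.9, 36.1 and 4.39 FPKM in null (log2 difference -0.29 ± 0.51 (SE), adjusted p = 0.751). The standard errors, from 0.17 for Irf8 to 0.51 for Cebpa, bound what this comparison could detect.

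CD19Cre differed from null in 6 of the 9 members, where limma called 39.0% of all genes. Irf8 (1.08 ± 0.17 (SE), adjusted p = 0.00592) and Spi1 (0.93 ± 0.23, adjusted p = 0.0212) were higher in CD19Cre. Cebpa (-2.46 ± 0.51, adjusted p = 0.0120), Klf4 (-1.52 ± 0.25, adjusted p = 0.00681), Pou2f2 (-1.31 ± 0.26, adjusted p = 0.0105) and Klf2 (-0.93 ± 0.27, adjusted p = 0.0334) were lower. Most called genes went the other way, 28.7% of all genes being higher in CD19Cre and 10.3% lower, and the median difference was -0.93 over the members and 0.25 over all genes. With upper-quartile scaling the median of all genes was -0.11. Cebpb, not called in either case, changed from 0.32 to -0.11. Without the CD19Cre Gr-1+ library 1 member, Irf8, was called, and 3.4% of all genes. Against CEBPaCre, 5 members were called beside 14.9% of all genes: Irf8 higher (9.1% of all genes were) and Klf2, Klf4, Cebpa and Irf4 lower (5.75% were). These 2 comparisons share the CD19Cre libraries, and 0 of the 5 calls held when the CD19Cre Gr-1+ library, either CEBPaCre library or the null Gr-1- library was left out, when the share of all genes called was 0.0481% to 0.144%. In these fits the Klf2 difference, -1.16 with all libraries, ran from -1.21 to -0.83, and that of Cebpa, -2.17 with all libraries, from -2.49 to -1.07.

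**Figure D3:**
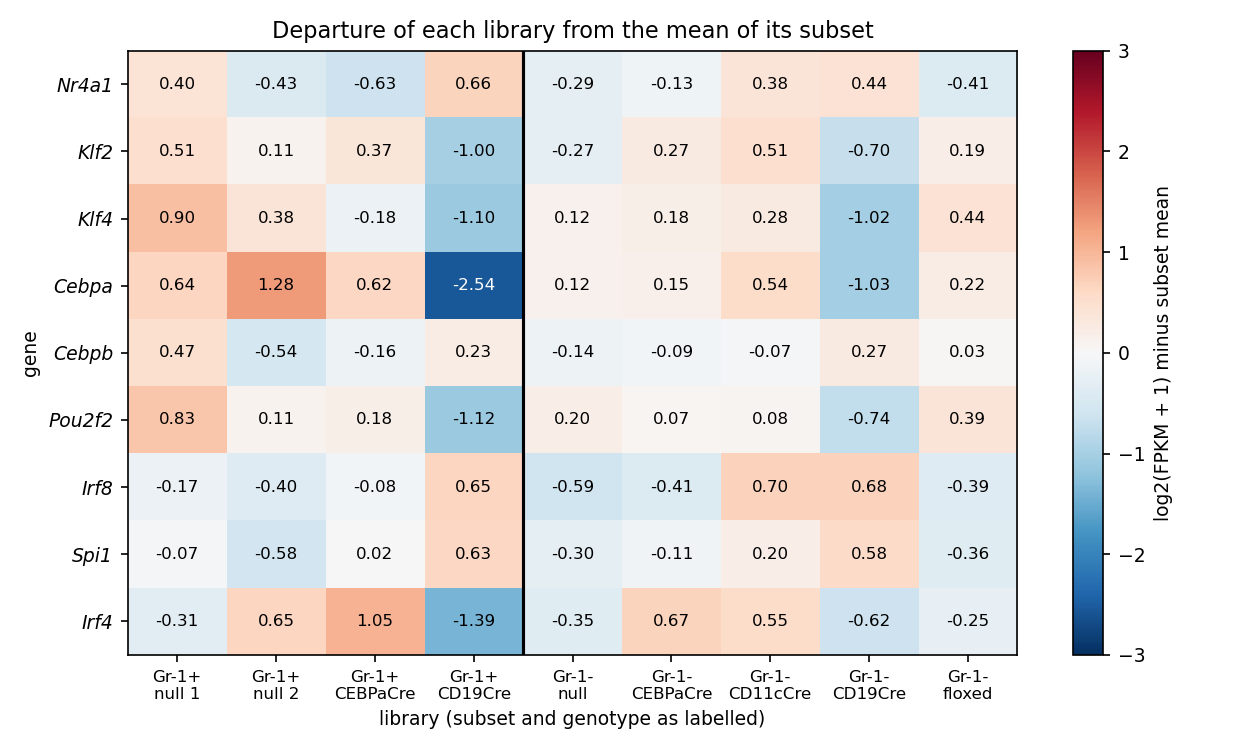
Departure of each member in each library from the mean of its subset, in log2(FPKM + 1), with libraries in columns, the 9 factors in rows, and blue for below and red for above the mean. The CD19Cre columns hold the lowest values for Cebpa (-2.54 in Gr-1+ and -1.03 in Gr-1-) and high values for Irf8 and Spi1 in both subsets.

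The same order was seen in both subsets without any test. The CD19Cre library was the lowest of its subset in both Gr-1+ and Gr-1- for Klf2, Klf4, Cebpa, Pou2f2 and Irf4, 5 of the 9 members against 13.1% of all genes. It was the highest in both for Nr4a1 and Spi1, 2 of 9 against 31.0% of all genes, which makes 7 of 9 at the same end in both against 44.1%. Cebpa departed most from its subset's mean, by -2.54 in Gr-1+ and -1.03 in Gr-1- on the log2 scale. Beside these values, the CD19Cre libraries had the lowest ribosomal protein shares, and CD11b itself, Itgam, was at 61.7 and 68.3 FPKM in them, 66.1 in floxed and 136 to 186 in the other libraries. Base composition was looked at as well: the members Klf2, Cebpa, Cebpb and Spi1 lie in the tenth of genes with the most GC-rich transcripts, whose median CD19Cre minus null difference was 0.17 against 0.12 to 0.36 in the other GC classes of the same size; its part in these results was not tested. Whether mouse, preparation or genotype goes with these values cannot be told apart, as each CD19Cre subset is 1 library.

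**Figure D4:**
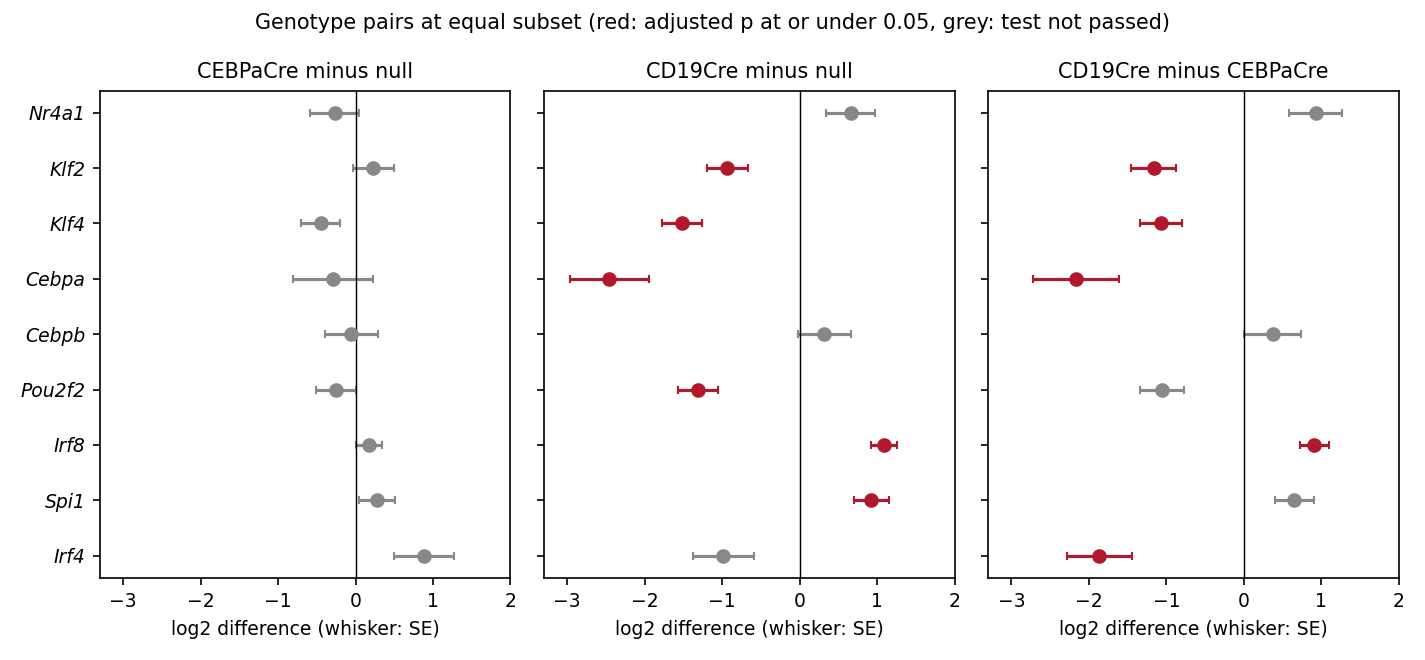
Log2 difference with its standard error for each member in the 3 pairs of genotypes that have both subsets, CEBPaCre minus null, CD19Cre minus null and CD19Cre minus CEBPaCre, with red points where limma's adjusted p was at most 0.05 and grey points elsewhere. All CEBPaCre minus null points are grey, and the CD19Cre points lie below 0 for Klf2, Klf4, Cebpa, Pou2f2 and Irf4 and above 0 for Irf8, Spi1, Nr4a1 and Cebpb.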

How the data were processed

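The 9 gene expression files, 1 per library, hold FPKM values that the authors deposited for 23234 symbols each. Per the submitters' processing notes, TopHat2 2.0.8, Cufflinks 2.1.1 and mouse build mm9 were used; the role of each and the annotation are not given in the sources used here. FPKM is not a count and the total depth is unknown. Relative depth was read from the spacing of low values.

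Values were taken as log2(FPKM + 1) and fitted in R 4.3.3 with limma 3.58.1 (lmFit, eBayes with trend) over genes whose mean reached 1 FPKM and that were above 0 in 2 or more fitted libraries. A gene was called where its p, adjusted after Benjamini and Hochberg, did not exceed 0.05. The pseudocount shrinks the folds of low genes. The members and lists were chosen with earlier results of these data known. Of each other list up to 5 genes with the smallest subset p were named, besides relatives of the members, the 3 genes most like each member, and a few chosen after their values were seen (Klf3, Klf6, Klf10, Csf1r, Cst3, Lyz2, Nab2, Trem3). The fit was tested on simulated data. Alternatives covered the pseudocount, the filter, scaling, a genotype block, library weights and leaving out libraries. Promoters came from RefSeq (GRCm38.p6), and no other coordinate was used. The values of 1 gene of the lists are not reported here.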

Additional observations from a re-analysis of the deposited data

How the results depend on the processing

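Nr4a1 and Pou2f2 kept their direction and their call between the subsets under all 19 alternatives run; Cebpb kept its direction in all 19 and its call in 11. Klf2, Klf4, Spi1 and Irf4 were not called under any alternative run (Irf4 could not be tested with a mean of at least 5 FPKM). With genotype as a replicate block 2712 genes were called between the subsets, and with library weights 2376, against 1544; with the genotypes that have both subsets alone there were 965. The block added Cebpa and Irf8 to the calls among the members and ended that of Cebpb (adjusted p = 0.0605). Upper-quartile scaling moved the median subset difference of all genes by -0.11 and the share of calls higher in Gr-1+ from 59.8% to 51.3%. No paired analysis by replicate number was possible because the groups share fewer than 2 replicate numbers, and the labels do not say which libraries came from the same mice.

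Between the libraries labelled deleted and intact, 0 members were called in every alternative except without the floxed library, so that leaving out 1 library gave 0 to 6. Leaving out both CD19Cre libraries, an alternative chosen after seeing the data, reversed 6 members, to 0.20 for Nr4a1, -0.19 for Klf2, -0.29 for Klf4, -0.088 for Cebpa, -0.26 for Pou2f2 and 0.15 for Spi1. Leaving out 1 library gave 1 to 7 called members for CD19Cre against null, and 0 to 6 for CD19Cre against CEBPaCre, where a pseudocount of 5 gave 3 and no filter on the mean gave 0; the cause was not tested. With all libraries 39.0% of all genes were called for CD19Cre against null and 14.9% for CD19Cre against CEBPaCre. For CD19Cre against CEBPaCre the share was 14.0% with a pseudocount of 5 and 0.0223% with no filter on the mean. It was 16.8% without the first null Gr-1+ library, the fit that called 6 members. As given above, the shares of both pairs also moved when other libraries were left out. The interaction could not be fitted without the CD19Cre Gr-1+ library. Where a library left out leaves a group with 1, that one is assumed to vary like the others. A single library for nearly every genotype and subset, and the lack of counts, limit the precision of every genotype value.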
